A study of Mus musculus with 9 samples.

Results

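Imprinted genes are expressed from only 1 parental copy, and 42 of them lying outside the Dlk1-Dio3 cluster and the Igf2 locus were considered. Those measured were compared between mouse fibroblasts, induced pluripotent stem cells and embryonic stem cells. Members were taken as probe sets of the array that carry exactly 1 gene symbol from this list of 42, with the probe set of highest mean signal used where a gene had several. This gave 37 measured genes, each with a single probe set, out of 19938 measured genes in all. Of the other 5, Snrpn, Ube3a and Gnas are named only on probe sets shared with further symbols, and Kcnq1ot1 and Zrsr1 could not be matched by symbol, so these 5 were not analysed here.

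Total RNA of 9 mouse cultures, in 3 groups of 3, was hybridised to whole-transcript Affymetrix arrays. MEF are embryonic fibroblasts grown to a passage below 3, and the induced pluripotent stem cells (iPS) were derived from these fibroblasts. R1 is an embryonic stem cell line, and with MEF it served as control of the iPS cells in the design text. Strain, sex, embryo pooling, the reprogramming factors, the number of iPS clones and the use of feeder cells are not given in the labels. The design text calls the 3 arrays of a line biological repeats and does not say if derivations differed. A p-value here therefore reflects only how far these cultures vary, which may be technical.

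In mammals, an imprint is in most but not all cases a methylation mark set on DNA in the egg or sperm. It is kept on that parental copy in the embryo's cells. The marked region, often a promoter of a noncoding RNA or of a paternally expressed gene, controls several neighbouring genes at once, some of them read from the maternal and others from the paternal copy. Many imprinted genes act on growth of the fetus and placenta. KRAB zinc-finger protein Zfp57 with its partner Trim28 and the maintenance methyltransferase Dnmt1 protect these marks in early embryos and stem cells. Arrays sum the RNA of both copies, so nothing here shows from which copy a transcript came. By textbook assignment, 17 measured members are paternally expressed, 19 are maternally expressed and L3mbtl1 was left unassigned. Several of these assignments hold only in brain or placenta.

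Promoter windows of RefSeq (GRCm38.p6), which run from 250 bases before to 50 bases after a start, were matched by symbol for 36 of the 42 genes. The first sequence shown lies between the divergent starts of Peg3 and Usp29, chr7:6730420-6730582, read on the minus strand toward Peg3. Peg3 is the reason for the choice, as it differed between iPS and R1 cells in the results below. Usp29 had a low signal on every array, so the pair cannot be compared by it. The stretch is 163 bases long and its 5 CG dinucleotides are in capitals.
Peg3 to Usp29: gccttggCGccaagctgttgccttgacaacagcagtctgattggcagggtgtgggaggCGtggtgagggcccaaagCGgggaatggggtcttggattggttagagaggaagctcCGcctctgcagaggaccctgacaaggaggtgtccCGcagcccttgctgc
The Phlda2 stretch is the 100 bases before its start, chr7:143502525-143502624 on the minus strand, and is shown because Phlda2 rose most. It holds 12 CG dinucleotides, and the TATAAA motif, found on the strand of the gene, is in capitals.
Phlda2: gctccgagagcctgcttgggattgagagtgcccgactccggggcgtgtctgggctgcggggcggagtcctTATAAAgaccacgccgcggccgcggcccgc
The last 3 stretches are the 100 bases before the starts of Mest (chr6:30737950-30738049, plus strand), Plagl1 (chr10:13090732-13090831, plus strand) and Nap1l5 (chr6:58907127-58907226, minus strand). They are shown because each holds TGCCGC, the hexamer that Zfp57 is known to bind when it is methylated. It is in capitals, as TGCCGC or as its reverse complement GCGGCA.
Mest: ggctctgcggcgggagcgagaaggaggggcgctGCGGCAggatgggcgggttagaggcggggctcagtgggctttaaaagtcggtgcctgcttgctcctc
Plagl1: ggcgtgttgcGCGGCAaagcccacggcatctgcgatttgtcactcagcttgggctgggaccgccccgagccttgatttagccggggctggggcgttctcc
Nap1l5: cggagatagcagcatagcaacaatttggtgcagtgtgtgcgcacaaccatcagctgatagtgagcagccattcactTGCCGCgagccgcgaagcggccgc
TGCCGC on either strand occurred in the windows of 11 of the 36 members (30.6%), against 13.1% of the 27025 genes of the promoter table. Members' windows were also richer in CG, with a median of 17 against 7 over all windows, and the hexamer itself holds a CG. Of the 10 measured members with the hexamer, 3 (Grb10, Plagl1 and Zim1) were called in a comparison, beside 14 of all 37 members. TATAAA, searched on the gene's strand, occurred for 13.9% of members and 9.77% of all genes.

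Signals are linear intensities, and array medians over all probe sets lay between 78.2 and 83.3. Differences are given in log2(signal + 16) with the standard error (SE) of a limma fit over all 9 arrays. A gene was called, and is said to have risen or fallen, at an adjusted p under 0.05 with a difference of at least 1. Markers were checked against the cell labels. Of 8 pluripotency markers, 8 were called higher in R1 and 8 in iPS cells than in MEF, and 7 of 7 fibroblast markers were lower in both. Between iPS and R1 cells the pluripotency marker Zfp42 was called (-2.77 ± 0.11, iPS minus R1), with 446, 519 and 553 in iPS and 3541, 3795 and 3281 in R1 arrays. Esrrb (-0.50) and Utf1 (-0.32) were lower at an adjusted p under 0.05 without a minimum difference. All 8 skeletal-muscle markers were lower in both lines than in MEF, so the MEF cultures held muscle transcripts. Their summed signal was 6666 to 8114 in MEF, 793 to 890 in R1 and 779 to 999 in iPS arrays. What part the muscle cells have in the changes below was not tested, and a change in the share of a cell type cannot be told apart from a change in RNA per cell.

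Of the 37 genes, 14 were called in at least 1 comparison, 7 paternally and 7 maternally expressed. Against MEF, 4 rose and 7 fell in iPS cells, together 29.7% of the members, where 12.7% of all genes were called. By direction, the shares over all genes were 5.08% higher and 7.58% lower. In R1 cells 4 rose and 10 fell, 37.8% of the members against 13.5% of all genes, with 5.56% higher and 7.94% lower among them. Both comparisons use the same MEF arrays. A mean signal under 50 over all arrays was found for 4 of the 37 members, against 30.1% of all genes. The scale used understates differences of dim genes, and members were not compared with genes of like signal. What part brightness has in the higher shares of members, here and between iPS and R1 cells, was not tested. Without the minimum difference, 29 members passed in iPS cells (11 higher, 18 lower) where 48% of all genes did (24.8% higher, 23.2% lower). In R1 cells 29 passed as well (12 higher, 17 lower), where 48.9% of all genes did (25.9% higher, 23% lower). Arrays of both groups did not overlap for 30 members in either comparison, against 52.3% of all genes in iPS and 54.4% in R1 cells. The median difference of the members was -0.24 in iPS and -0.07 in R1 cells, against 0.02 for all genes in each. Without MEF replicate 2 the iPS median was -0.15, and leaving out single arrays gave R1 medians of -0.09 to -0.02. By expressed allele, 2 paternal and 2 maternal genes rose in each line. In iPS cells 4 paternal and 3 maternal genes fell, and in R1 cells 5 of each did. The median was -0.24 for the paternal and -0.28 for the maternal genes in iPS cells, and -0.07 and -0.29 in R1 cells. Genes of both allele classes thus rose and fell in each line.

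**Figure D1:**
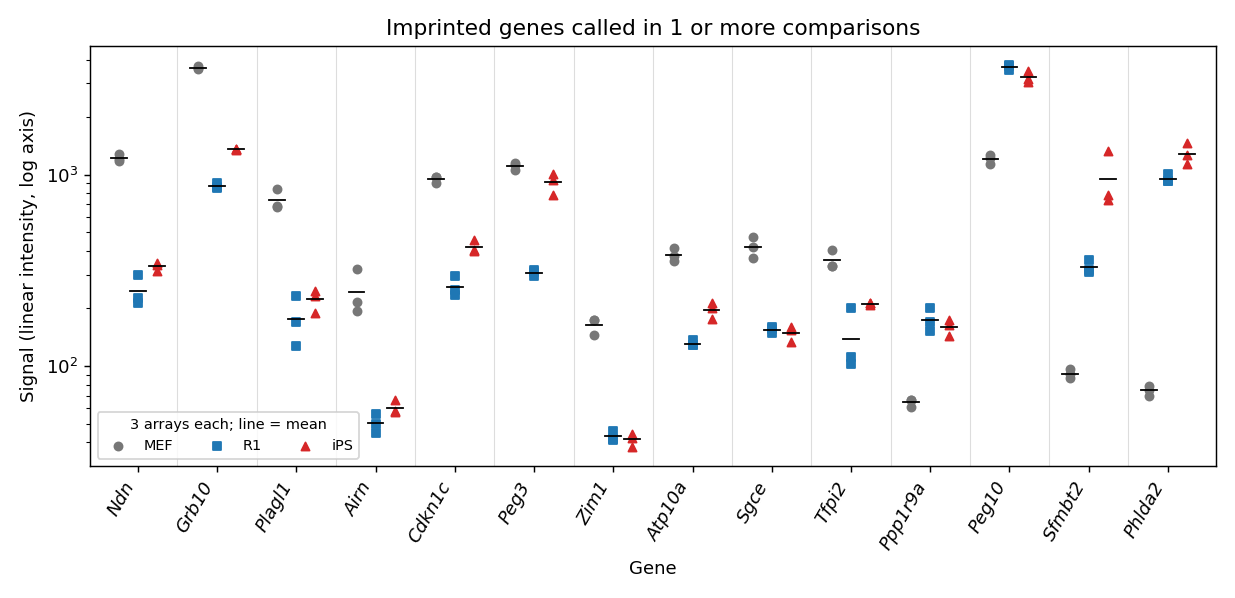
Signal (linear intensity, log axis) of the 14 imprinted genes called in 1 or more comparisons, ordered by their R1 difference from MEF, in 3 MEF (circles), 3 R1 (squares) and 3 iPS (triangles) arrays, with lines at the means. Ndn to Tfpi2 were lower in R1 than in MEF, Ppp1r9a to Phlda2 were higher, and the iPS arrays of Peg3 (787 to 1003) sit near those of MEF (1053 to 1152).

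The Kcnq1ot1 domain on distal chromosome 7 holds growth-restraining genes read from the maternal copy, and 7 of its genes were measured. Phlda2, which encodes a small pleckstrin-homology protein that limits placental growth, gave signals of 75.1, 69.6 and 78.8 in MEF. It reached 1003, 929 and 929 in R1 and 1136, 1261 and 1468 in iPS arrays. The lowest pluripotent array was thus far above the highest MEF array, and the increase was 3.84 ± 0.09 in iPS (adjusted p = 1.73e-09) and 3.42 ± 0.09 in R1 cells (adjusted p = 2.41e-09). Mean signals were 17.3 and 12.8 times those of MEF.

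Cdkn1c, the CDK inhibitor p57 that restrains the cell cycle, moved the other way. Its signals were 969, 910 and 969 in MEF, 249, 294 and 234 in R1, and 399, 405 and 455 in iPS arrays. It fell by 1.15 ± 0.08 in iPS (adjusted p = 1.64e-06) and differed by -1.82 ± 0.08 in R1 cells (adjusted p = 6.83e-08), and no groups overlapped. The other 5 measured genes of the domain were not called. Cd81, a tetraspanin of the cell surface, differed from MEF by -0.52 and -0.51 in iPS and R1 cells, and Ascl2, a trophoblast transcription factor, by 0.57 and 0.46. For Slc22a18, a transporter gene beside Phlda2, the differences were 0.25 and 0.37, for Tssc4 -0.51 and -0.41, and for the potassium channel gene Kcnq1 0.12 in both. Osbpl5, a lipid-transfer gene at the edge of the domain and not a member, fell by 1.59 in iPS and by 1.73 in R1 cells.

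In the Peg10 domain on proximal chromosome 6, Peg10 and Sgce start from adjacent divergent promoters and both are paternally expressed. Peg10, a retrotransposon-derived gene required for the placenta, had signals of 1136, 1269 and 1226 in MEF. They were 3743, 3517 and 3717 in R1 and 3148, 3061 and 3492 in iPS arrays. Peg10 rose in both lines, by 1.4 ± 0.06 in iPS (adjusted p = 7.50e-08) and 1.58 ± 0.06 in R1 cells (adjusted p = 3.16e-08).

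Sgce, which encodes the membrane protein epsilon-sarcoglycan, gave 367, 474 and 419 in MEF, 149, 156 and 159 in R1, and 160, 134 and 154 in iPS arrays. It fell by 1.39 ± 0.09 in iPS (adjusted p = 7.94e-07) and by 1.35 ± 0.09 in R1 cells (adjusted p = 9.25e-07). The pair thus changed in opposite directions in both lines. Skeletal-muscle and fibroblast markers both fell in the same comparisons, and the part of either in the Sgce change was not tested.

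Ppp1r9a, the maternally expressed gene of neurabin on the far side of Peg10, rose by 1.12 ± 0.09 in iPS (adjusted p = 4.95e-06) and 1.23 ± 0.09 in R1 cells (adjusted p = 2.34e-06). Its signals were only 61.4 to 66.7 in MEF, 153 to 202 in R1 and 144 to 174 in iPS arrays. At log2(signal + 64) the differences were 0.80 and 0.89 and neither was called. Tfpi2, a protease inhibitor gene expressed maternally in placenta, had 333, 405 and 333 in MEF and 208, 214 and 214 in iPS arrays. R1 arrays were uneven, with 103, 202 and 112. It fell in R1 cells (-1.32 ± 0.20, adjusted p = 0.000258) and was not called in iPS cells (-0.71 ± 0.20). Calcr (0.35 and 0.26) and Asb4 (-0.66 and -0.68), both with a mean signal under 50, were not called in iPS or R1 cells. Pon2, a paraoxonase gene of the same domain and not a member, fell in iPS cells by 1.79 and stood at -0.99 in R1 cells.

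The Peg3 domain on proximal chromosome 7 gave the largest difference between the pluripotent lines among the members. Peg3, a paternally expressed zinc-finger protein of mesenchymal and neural tissue, had signals of 1152, 1053 and 1128 in MEF, 309, 317 and 296 in R1, and 787, 942 and 1003 in iPS arrays. All iPS arrays were above every R1 array and below the lowest MEF array. Peg3 fell in R1 cells (-1.80 ± 0.08, adjusted p = 7.22e-08) and was not called in iPS cells (-0.29 ± 0.08, adjusted p = 0.0159). The direct comparison of iPS with R1 cells gave 1.51 ± 0.08 (adjusted p = 2.05e-05).

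Usp29, which is transcribed away from Peg3 across the stretch printed above, lay between 27.9 and 32.9 on all 9 arrays, and its groups overlapped. No background level is given for the arrays, and its differences of 0.02 or less were not called. Zim1, the maternally expressed zinc-finger neighbour on the other side, had 145, 174 and 174 in MEF, 45.9, 41.1 and 41.6 in R1, and 44.3, 37.8 and 41.9 in iPS arrays. It fell in iPS (-1.65 ± 0.08, adjusted p = 7.63e-08) and R1 cells (-1.61 ± 0.08, adjusted p = 7.54e-08). The iPS and R1 arrays of Zim1 overlapped, with a difference of -0.04 ± 0.08, unlike those of Peg3.

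In the Prader-Willi and Angelman domain on central chromosome 7, Ndn, which encodes the growth suppressor necdin, fell most of all members in both lines. Its signals were 1176, 1287 and 1201 in MEF, 214, 298 and 228 in R1, and 313, 338 and 345 in iPS arrays. The decrease was -1.83 ± 0.11 in iPS (adjusted p = 3.39e-07) and -2.25 ± 0.11 in R1 cells (adjusted p = 7.56e-08). By the ratio of mean signals, iPS to MEF, Ndn (0.272) came after Airn (0.248) and Zim1 (0.252).

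Its paternally expressed neighbours Magel2, a ubiquitin-ligase regulator (0.25 and 0.08), and Mkrn3, a ring-finger gene (0.64 and 0.38), were not called in iPS or R1 cells. Mkrn3 arose as a copy of Mkrn1, which is not imprinted and rose by 3.32 in iPS and 3.36 in R1 cells. Atp10a, a phospholipid flippase gene assigned to the maternal copy, had 352, 416 and 375 in MEF, 136, 128 and 129 in R1, and 214, 175 and 201 in iPS arrays. It fell in R1 cells (-1.43 ± 0.08, adjusted p = 2.34e-07), while the iPS difference of -0.90 ± 0.08 (adjusted p = 6.53e-06) stayed under the minimum.

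Genes of single-gene domains and a noncoding RNA completed the changes. Grb10, an adaptor that dampens insulin and growth-factor signalling, had 3566, 3616 and 3692 in MEF, 849, 867 and 910 in R1, and 1361, 1361 and 1342 in iPS arrays. It fell by 1.41 ± 0.04 in iPS (adjusted p = 7.53e-09) and by 2.03 ± 0.04 in R1 cells (adjusted p = 1.02e-09), with the smallest SE among the called members. Plagl1, a zinc-finger gene that controls other imprinted genes and slows growth, had 685, 843 and 680 in MEF, 169, 232 and 127 in R1, and 247, 232 and 189 in iPS arrays. It fell by 1.66 ± 0.18 in iPS (adjusted p = 3.46e-05) and by 2.0 ± 0.18 in R1 cells (adjusted p = 8.41e-06), and the arrays of both pluripotent lines overlapped.

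Airn is the paternally transcribed RNA that runs antisense through Igf2r. Its signals of 194, 322 and 215 in MEF dropped to 44.9, 56.1 and 49.5 in R1 and to 66.3, 57.3 and 58.1 in iPS arrays, which is -1.73 ± 0.15 in iPS (adjusted p = 7.01e-06) and -1.94 ± 0.15 in R1 cells (adjusted p = 2.86e-06). MEF replicate 2 was the highest, and without it the differences were -1.53 and -1.74. Igf2r, the maternally expressed receptor that clears Igf2, fell in parallel, by 1.5 ± 0.10 in iPS and 1.63 ± 0.10 in R1 cells. Both genes overlap on opposite strands and the sources used here do not say how the array's probes treat strand, so their signals cannot be told apart with certainty.

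Sfmbt2, a Polycomb-group gene that is paternally expressed in trophoblast and early embryo, rose in both lines but unequally. Its signals were 90.5, 86.2 and 97 in MEF, 317, 357 and 311 in R1, and 1323, 739 and 781 in iPS arrays. The increase was 3.12 ± 0.18 in iPS (adjusted p = 4.02e-07) and 1.68 ± 0.18 in R1 cells (adjusted p = 2.91e-05). Sfmbt2 was also higher in iPS than in R1 cells, by 1.44 ± 0.18 (adjusted p = 0.00185), with iPS replicate 1 far above the other iPS arrays. Without this array the difference was 1.17 (adjusted p = 0.000161).

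Markers of trophoblast were followed beside Sfmbt2, Phlda2 and Peg10, since these genes are active in placenta. The summed signal of 7 measured markers was 702 to 820 in MEF, 847 to 867 in R1 and 1140 to 1435 in iPS arrays. Eomes and Tfap2c were called higher and Gata3 lower in both lines than in MEF. Between iPS and R1 cells 0 of 7 were called at the minimum difference, and 5 of 7 differences were positive. Without the minimum, Tfap2c (0.69, adjusted p = 0.000552) and Gata3 (0.49, adjusted p = 0.000511) were higher in iPS cells. At that threshold 4.12% of all genes were higher and 4.4% lower. Eomes, which early embryo cells also express, gave 407, 194 and 202 in iPS arrays, again highest in replicate 1. Cdx2 (means of 64, 75 and 84.4 in MEF, R1 and iPS arrays) and Elf5 (44.1, 44.7 and 42.5) stayed low in every group. What part trophoblast-like cells have in the Sfmbt2 difference was not tested.

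Between iPS and R1 cells, Peg3 and Sfmbt2 were the 2 called members, 5.41% of the 37, where 0.461% of all genes were called (0.296% higher and 0.166% lower). No member was called lower in iPS cells by limma, and 1, Inpp5f, was lower at an adjusted p under 0.05 without a minimum difference. At that threshold 9 members differed (24.3%, against 8.52% of all genes). Of these, 8 were higher in iPS cells, against 4.12% of all genes higher and 4.4% lower. The iPS and R1 arrays did not overlap for 17 members (45.9%), against 21.9% of all genes. The median difference was 0.02 over all 37 members, and -0.02 to 0.08 when single arrays were left out. For the 17 paternal genes the median was 0.17 and for the 19 maternal genes 0.01, against -0.01 for all genes.

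**Figure D2:**
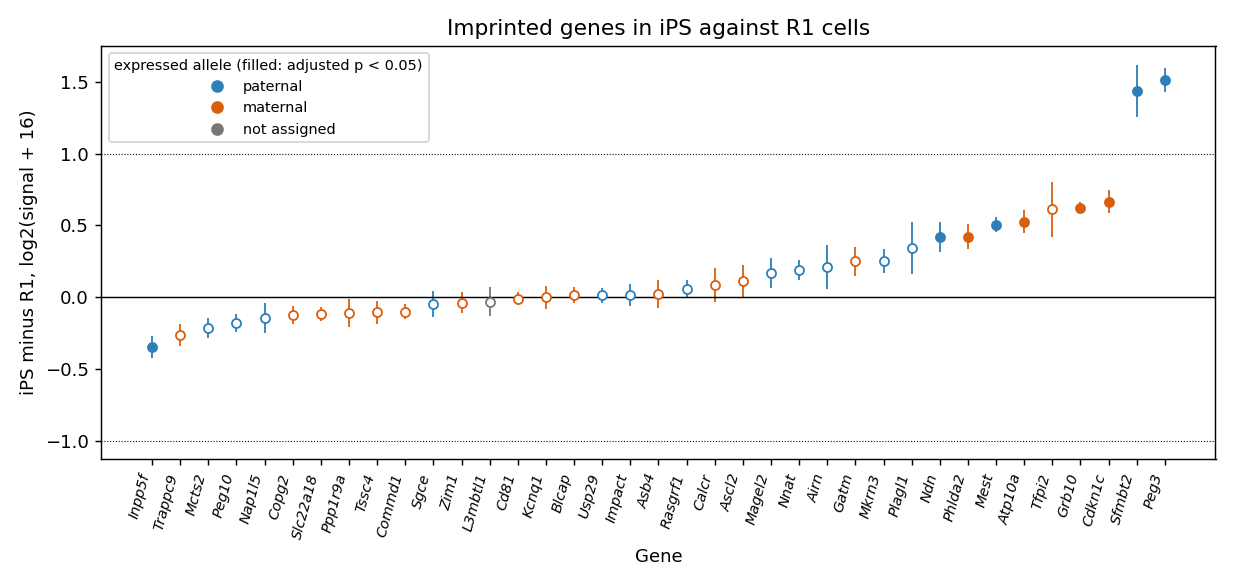
Difference of iPS minus R1 cells in log2(signal + 16), with the SE of the fit, for 37 imprinted genes in order of size and coloured by expressed allele; filled points have an adjusted p under 0.05 and dotted lines mark -1 and 1. Peg3 (1.51) and Sfmbt2 (1.44), both paternally expressed, stand above 1, and Cdkn1c (0.67) and Grb10 (0.62), both maternally expressed, follow.

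The 6 smaller increases were those of Cdkn1c (0.67 ± 0.08, adjusted p = 0.00162), Grb10 (0.62 ± 0.04, adjusted p = 6.06e-05), Atp10a (0.53 ± 0.08, adjusted p = 0.00435), Mest (0.51 ± 0.05, adjusted p = 0.000516), Phlda2 (0.42 ± 0.09, adjusted p = 0.0180) and Ndn (0.42 ± 0.11, adjusted p = 0.0404). For all 6 the iPS arrays lay above all R1 arrays, which choosing the genes by this difference favours. Fibroblast markers were slightly higher in iPS than in R1 arrays too. All 7 differed in that direction, by 0.13 to 0.67. At the threshold of these 6 members 1 marker passed, Col1a1 at 0.67 (adjusted p = 0.0288), and 0 markers passed with the minimum difference. Their summed signal was 1962 to 2877 in R1, 2914 to 3552 in iPS and 27098 to 31232 in MEF arrays. On the way from the R1 to the MEF mean signal, the sum of the markers in iPS cells lay at 3.50%, and single markers at 1.20% to 5.21%. Over the 10 members called lower in R1 cells than in MEF, positions ran from -1.98% (Sgce) and -1.25% (Zim1), past the R1 mean, through 5.35% (Airn), 8.33% (Plagl1), 8.76% (Ndn), 17.4% (Grb10), 23.3% (Cdkn1c), 26.2% (Atp10a) and 33.4% (Tfpi2) to 75.1% (Peg3). Mest, not called, lay at 54.3%. The 10 members were chosen by their R1 difference from MEF, and Mest by its difference between iPS and R1 cells. Choosing a gene as higher in iPS than in R1 cells favours a high position. Both choices use the R1 arrays that also set the positions. The part of remaining fibroblast RNA in the differences between iPS and R1 cells was not tested. The lower Zfp42 of iPS cells stands beside all of them, and its part was not tested either. Phlda2 and Sfmbt2 lay beyond R1 on the side away from MEF.

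Genes paired as an imprinted gene with its host or overlapping neighbour could be set side by side. Mest, a paternally expressed hydrolase-like gene of mesoderm, had 1652, 1734 and 1795 in MEF, 955, 936 and 1010 in R1, and 1333, 1409 and 1399 in iPS arrays, and its groups did not overlap. Its differences from MEF were -0.32 in iPS and -0.83 in R1 cells, under the minimum for a call. Copg2, a coat protein gene that overlaps Mest, stood at 0.69 and 0.81. Mir335, the microRNA in an intron of Mest, gave 37.8 to 50.9 over all arrays, and its hairpin probe does not measure the mature microRNA.

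Mcts2, a retrogene inside H13, differed from MEF by 0.13 in iPS and 0.34 in R1 cells, while its host H13, a signal-peptide peptidase gene, fell by 1.29 and 1.39. Mcts2 closely resembles its parent gene Mcts1 (0.18 and 0.11), so which copy was measured is uncertain. Nnat, a small membrane proteolipid gene of the nervous system, stood at -0.45 and -0.64, and its host Blcap at -0.28 and -0.29. Nap1l5, a nucleosome assembly protein-like gene inside Herc3, differed by -0.24 and -0.09, and Herc3 by 0.18 and -0.10.

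In all, 23 members were called in no comparison, and their differences from MEF ran from -0.66 (Asb4) to 0.69 (Copg2) in iPS and from -0.83 (Mest) to 0.81 (Copg2) in R1 cells. Among them, 15 in each comparison had an adjusted p under 0.05 with a difference below the minimum. Impact, a translation regulator, was at 0.44 and 0.43 in iPS and R1 cells, Gatm, an enzyme of creatine synthesis, at -0.43 and -0.67, and Commd1, a copper-homeostasis gene, at 0.25 and 0.35. Inpp5f, a phosphoinositide phosphatase gene, was at -0.42 in iPS and -0.07 in R1 cells, and was lower in iPS than in R1 cells (-0.35 ± 0.08, adjusted p = 0.0241). Trappc9 was at 0.07 and 0.34, L3mbtl1 at 0.18 and 0.21, and Rasgrf1, with signals of 31.3 to 39.9, at 0.09 and 0.03. Of the 37 genes, 4 had a mean signal under 50 over all arrays (Usp29, Calcr, Asb4 and Rasgrf1), and none of these was called.

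A list of 24 genes that set, read or remove imprints, all measured, was described with the same fit. In iPS cells 9 rose and 1 fell against MEF, and in R1 cells 7 rose and 1 fell, with medians of 0.63 and 0.60 against 0.02 for all genes. The shares over all genes were 5.08% for a rise and 7.58% for a fall in iPS cells, 5.56% and 7.94% in R1 cells. Zfp57 rose by 2.10 ± 0.10 in iPS and 2.46 ± 0.10 in R1 cells, from 588, 600 and 685 in MEF to 2385, 2817 and 2978 in iPS and 3327, 3902 and 3304 in R1 arrays. Trim28, which recruits silencing enzymes to Zfp57, rose by 1.27 and 1.25. The methylation cofactor Dnmt3l rose by 5.44 and 5.08, the de novo methyltransferase Dnmt3b by 3.99 and 3.30, the hydroxylase Tet1 by 4.67 and 4.79, and the remodeller Hells by 1.66 and 1.76, while Tet3 fell by 1.77 and 1.81. Dnmt1 (0.16 and 0.30), its partner Uhrf1 (0.83 and 0.80) and Zfp445, a second protector of imprints (0.23 and 0.48), were not called.

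Between iPS and R1 cells 1 of these 24 genes was called. Dppa3, which shields maternal methylation after fertilization, had 282, 251 and 338 in iPS and 83.3, 72 and 92.4 in R1 arrays, a difference of 1.63 ± 0.17 (adjusted p = 0.000660). At an adjusted p under 0.05 without the minimum difference, Atrx, a chromatin remodeller (0.58, adjusted p = 0.000292), and Dnmt3b (0.68, adjusted p = 0.0127) were also higher in iPS cells, and the de novo methyltransferase Dnmt3a (-0.60, adjusted p = 0.0422) was lower. Zfp57 did not pass, at -0.36 ± 0.10 (adjusted p = 0.0554).

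**Figure D3:**
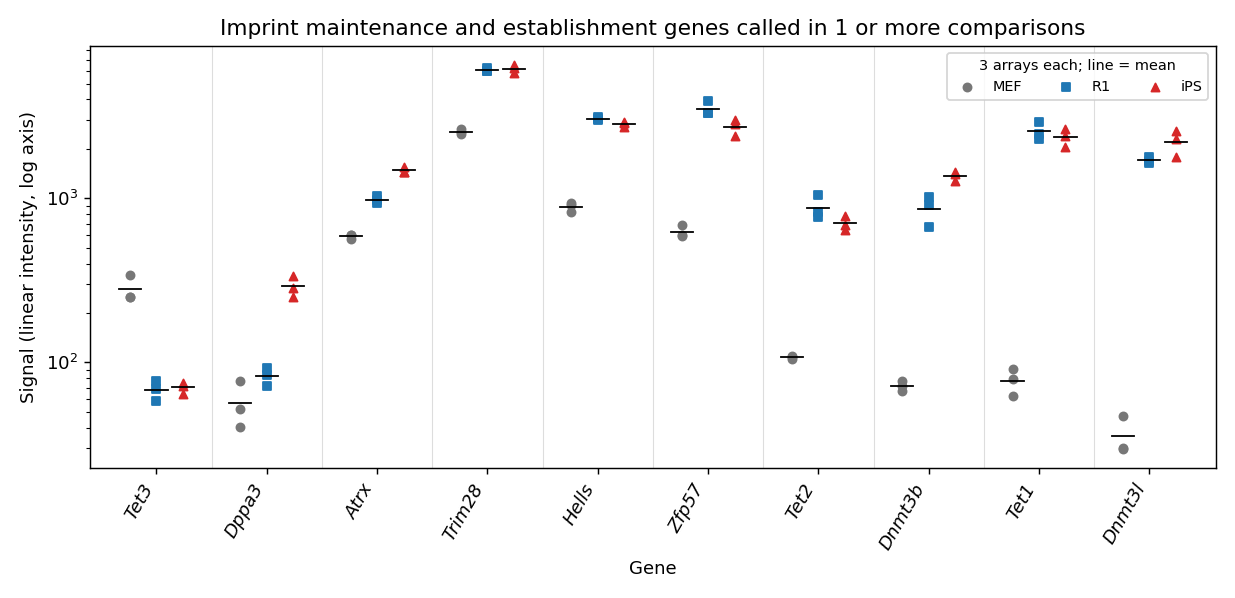
Signal (linear intensity, log axis) of the 10 genes of the imprint maintenance and establishment list called in 1 or more comparisons, in 3 MEF (circles), 3 R1 (squares) and 3 iPS (triangles) arrays, with lines at the means. Tet3 was highest in MEF, Dppa3 was highest in iPS arrays (251 to 338), and the other 8 genes were lowest in MEF.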

How the data were processed

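Total RNA of 9 cultures, extracted with Trizol and labelled with the manufacturer's whole-transcript kits per the labels' protocols, was measured on Affymetrix arrays. The authors deposited each probe set's intensity on a linear scale. GCOS 1.4 is named, with no role, in the submitters' processing notes. Background correction, summarization and normalization: not given in the sources used here. No detection calls were used. With 3 arrays a group, their number limits the precision.

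The array has 35557 probe sets. The platform's annotation names a single gene for 21789 and several for 1621, and it lacks 12147. Only single-gene probe sets were kept. Keeping the probe set with the highest mean left 19938 genes. The RefSeq gene table (GRCm38.p6) changed 0 symbols and served for names and neighbours.

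Signals were analysed as log2(signal + 16), which understates differences of dim genes, in limma 3.58.1 (R 4.3.3) with 1 mean per group, 6 residual degrees of freedom and Benjamini-Hochberg adjustment over all genes. The members and gene lists were chosen with earlier results of these data known. All members could be named, and other genes only from the lists for imprint control, domain neighbours, retrogene parents and cell types. Alternatives covered pseudocount, normalization, dim genes, probe set choice, thresholds, variance model, a block for the replicate number, and removal of single arrays. Model fitting was tested on simulated data.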

Additional observations from a re-analysis of the deposited data

Results flagged for a closer look

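The change from MEF differed between iPS and R1 cells for 2 members, by the test of iPS against R1 cells in the fit over all arrays. Peg3 differed by 1.51 on the log2 scale, with iPS arrays at 787 to 1003 and R1 arrays at 296 to 317. Sfmbt2 differed by 1.44, with iPS arrays at 739 to 1323 and R1 arrays at 311 to 357. Leaving out single arrays gave 1.44 to 1.61 for Peg3 and 1.17 to 1.59 for Sfmbt2, and both stayed called each time.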

How the results depend on the processing

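Of 2097 values of single members under 19 alternatives, 0 reversed a call, 40 gained one, all by dropping the minimum difference, and 2 lost one, both of Ppp1r9a with log2(signal + 64). In 24 the sign of an uncalled value changed. Without the minimum difference the members called were 29 in iPS against MEF (11 higher, 18 lower), 29 in R1 against MEF (12 higher, 17 lower) and 9 in iPS against R1 (8 higher, 1 lower). The median of the members in iPS against MEF moved to -0.14 with log2(signal + 64) and ranged from -0.27 to -0.15 when single arrays were left out, lowest in size without MEF replicate 2. The other counts and medians kept their values within 1.5 times or the spread between arrays. In their deviations from group means, same-numbered pairs of arrays correlated at -0.08 to 0.24, 4 of 9 above 0.1. Differently numbered pairs correlated at -0.23 to 0.20. Replicate 1 arrays of the 3 groups correlated with each other at 0.21 to 0.24. MEF replicate 2, R1 replicate 2 and iPS replicate 3 did so at 0.19 to 0.20. What the arrays of either set share was not tested. A replicate block left 11, 14 and 2 members called in the 3 comparisons, as without it. The block goes by replicate number, so it cannot take up what the second set shares. The cause of these shifts was not tested. Signal over background is not given, which limits dim members such as Usp29.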

Other observations

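Among 25 measured neighbours and hosts of the imprinted genes, 1 was called higher and 5 lower in iPS cells than in MEF, and 1 and 4 in R1 cells. The shares over all genes were 5.08% for a rise and 7.58% for a fall in iPS cells, 5.56% and 7.94% in R1 cells. The share of higher neighbours was thus near that of all genes, and the share of lower ones was above it in both lines. Igf2r, itself imprinted, is among these neighbours, so they are not a set of non-imprinted genes. Cobl, the actin nucleator gene beside Grb10, rose by 1.91 in iPS and 2.56 in R1 cells, while Grb10 fell. Bag3, a co-chaperone gene beside Inpp5f, fell by 1.63 and 1.31. Between iPS and R1 cells 0 of the 25 were called by limma, where Pon2 (-0.81), Cobl (-0.65), Pon3 (-0.38), Nus1 (0.33) and Casd1 (0.29) had an adjusted p under 0.05 without the minimum difference. The summed signals of the other marker lists in MEF, R1 and iPS arrays were 422 to 495, 685 to 767 and 604 to 702 for endothelium and 303 to 345, 491 to 521 and 447 to 468 for macrophages. They were 1902 to 2235, 964 to 1007 and 992 to 1064 for neural cells, and 3810 to 4024, 1648 to 1711 and 1621 to 1950 for primitive endoderm. Bright markers dominate such sums, and most single markers could go the other way. By sign alone, 5 of 7 neural markers were higher than MEF in iPS and 6 in R1 cells. In each line 5 of 8 primitive endoderm and 3 of 8 macrophage markers were higher. Of 8 macrophage markers only Cd68 was called, higher in both lines than in MEF (means of 109, 303 and 255 in MEF, R1 and iPS arrays). Of 8 endothelial markers Pecam1 (46.8, 247 and 208) was called higher and Emcn lower in both lines. Among neural markers Nes (1428, 197 and 267) was called lower and Neurod1 higher. For primitive endoderm Dab2 was called lower in both lines, Gata6 in iPS and Lamb1 in R1 cells.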
